A study of Rattus norvegicus with 6 samples.

Results

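H3K9la, H4K8la and H4K16la were compared with each other in rat tenocytes given 20 mM lactate, from the narrow-peak list of each mark. The 3 lists held 46597 peaks for H3K9la, 42787 for H4K8la and 62563 for H4K16la, which makes 151947 of the 315825 peaks in the series. Peaks that overlapped by at least 1 bp were merged, and this gave 112318 regions. A mark was counted as present in a region when at least 1 of its peaks lay there.

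The cells were wild-type tenocytes from tendon, kept in culture, and they were profiled by CUT&Tag, in which an antibody brings a transposase to the chromatin that carries a mark. Each antibody was used once on cells given 20 mM lactate and once on untreated cells (control), so there were 6 libraries, 1 for each mark and condition. The treatment entry and the title of each sample separate lactate from control, although a free-text field names 20 mM lactate for all 6. The sources used here do not give strain, age, sex or the length of treatment. There were no replicates. No p-value was computed, differences between libraries were not checked against replicates, and all intervals are Wilson 95% intervals that cover counting error only.

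Lactylation is the attachment of a lactyl group, derived from lactate, to a lysine. The lysines studied here lie in the tails of histones H3 and H4, where the same positions can also be acetylated, and acetylation of these tails is a textbook feature of open, active chromatin. H4K16 is further known because its acetylation loosens contacts between neighbouring nucleosomes. Tenocytes are the fibroblast-like cells that build the collagen matrix of tendon, a tissue with few blood vessels.

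Depth differed between the 3 lactate libraries. The peak lists carry no read totals. Depth was therefore read from the commonest local background of a library's peaks, in fragments per base, as solved from the fold and p columns. It was 1.55 for H4K8la, 1.88 for H3K9la and 2.84 for H4K16la, and the shortest and longest lists were those of the lowest and highest value. This order did not hold in control, where H4K8la had 1.32 with 61347 peaks and H4K16la 1.53 with 40681. Fold below means the pileup of fragments at the summit over the local background, and q is the adjusted p of the peak caller. Both are the authors' values for single peaks. They describe or rank peaks within a list and set no level of one mark against another. No gene annotation of build rn7 was used, so regions are given by position (rn7, counted from 1) without genes or gene parts.

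Most regions carried 1 mark. Of the 112318 regions, 83922 (74.7%, 74.46 to 74.97) had a single mark, 17671 (15.7%, 15.52 to 15.95) had 2 and 10725 (9.55%, 9.38 to 9.72) had all 3. Single-mark regions were split into 37776 for H4K16la, 23684 for H3K9la and 22462 for H4K8la, in the order of list length. Among pairs, H3K9la with H4K16la was found in 8188 regions, H4K8la with H4K16la in 5679 and H3K9la with H4K8la in 3804. Seen from the lists, 23.4% of H3K9la peaks (22.97 to 23.74), 25.3% of H4K8la peaks (24.9 to 25.7) and 17.4% of H4K16la peaks (17.1 to 17.7) lay in a region with all 3 marks.

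The excess of H4K16la alone went with the length of its list. With the 42787 peaks of highest −log10 q taken from each list, which is the length of the shortest, 22240 regions carried H4K16la alone, 22412 H3K9la alone and 24012 H4K8la alone. The 3-mark regions then numbered 9722 of 93463, or 10.4% (10.2 to 10.6). Their share was 12.4% for the top 20000 peaks of each list, 13.2% for 10000, 13.0% for 5000, 12.1% for 2000 and 11.2% (9.95 to 12.6) for 1000. The share was thus highest at intermediate lengths and lower at both ends.

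The pair that coincided most often depended on how deep into the lists one went. Of the 2-mark regions, H3K9la with H4K16la made up 46.3% in the full lists, 40.7% at the length of the shortest list and 31.4% (28.3 to 34.6) at the top 2000. The pair of H4 marks, H4K8la with H4K16la, went from 32.1% in the full lists to 30.4% and then to 39.9% (36.6 to 43.2). It led at the top 10000 peaks and at every shorter length tried, with 43.2% (38.51 to 48.03) at the top 1000. When summits were scaled to the lowest background of the 3 libraries, with −log10 p of at least 4, the lists were again unequal. They kept 38630 peaks for H3K9la, 39913 for H4K8la and 30686 for H4K16la, which was now the shortest. The order of the pairs changed again, with 4923 regions of H3K9la with H4K8la against 4538 and 3504. The part of list length in this order was not tested. No order of the pairs held in all settings.

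**Figure D1:**
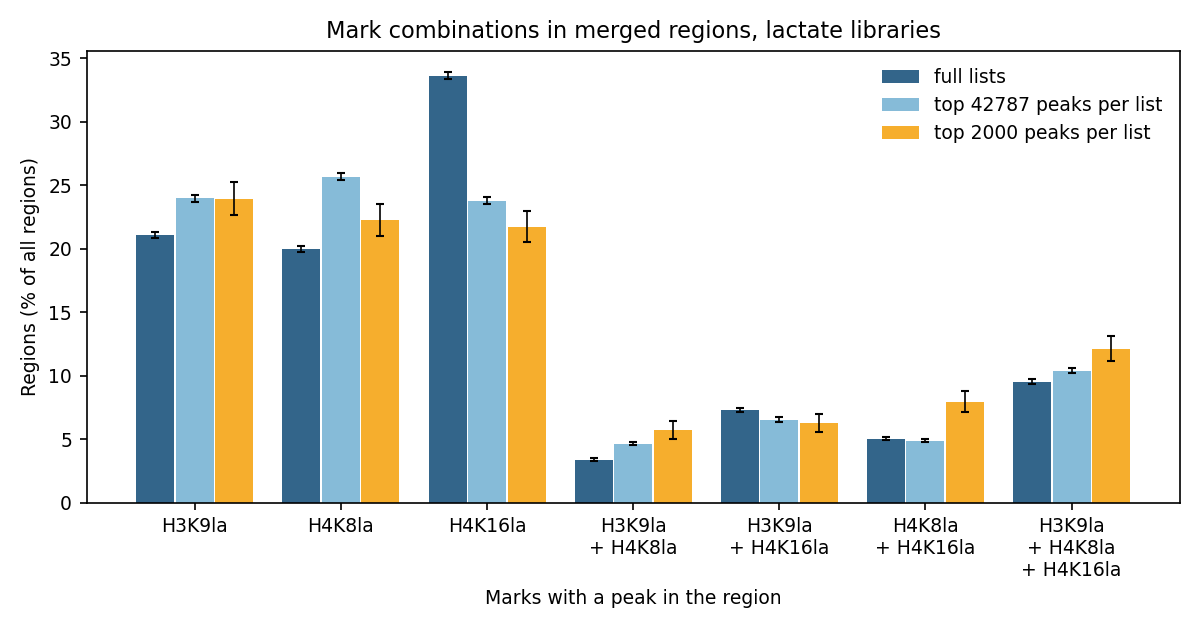
Bars give the share of merged regions (percent of all regions, vertical axis) for each of the 7 combinations of marks in the lactate libraries, with Wilson 95% intervals, for full lists and for 42787 and 2000 top peaks per list. H4K16la alone stands out at 37776 regions in the full lists and is level with the other single marks at equal length, while H4K8la with H4K16la is the largest pair for the top 2000.

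Peaks in 3-mark regions were wider, higher and more significant than peaks that stood alone, for each mark. The median width of H3K9la peaks was 404 bp in 1-mark, 467 bp in 2-mark and 580 bp in 3-mark regions. For H4K8la it was 422, 496 and 626 bp, and for H4K16la 408, 486 and 614 bp. A wider peak has more room to overlap another, so width and number of marks are linked by the merging itself.

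Median fold went the same way, from 3.50 over 3.73 to 4.11 for H3K9la, from 3.64 over 3.91 to 4.39 for H4K8la and from 3.27 over 3.52 to 4.00 for H4K16la. Median −log10 q rose from 2.72 in 1-mark to 4.86 in 3-mark regions for H3K9la, from 2.60 to 4.97 for H4K8la and from 2.99 to 5.75 for H4K16la. Median local background, in fragments per base, rose between the same classes as well. It went from 2.70 to 3.72 for H3K9la, from 1.90 to 3.16 for H4K8la and from 3.92 to 5.05 for H4K16la. The part of local coverage in these differences was not tested. The merged regions had a median width of 411 bp with 1 mark, 679 bp with 2 and 921 bp with 3. The 3-mark regions covered 10.4 Mb, 16.9% of all covered sequence, although they were 9.55% of the regions.

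The highest ranked peaks of each list lay mostly in 3-mark regions and the lowest ranked mostly alone, while the ranks between were mixed. Of the 1000 H4K8la peaks of highest −log10 q, 93.8% (92.1 to 95.1) lay in a 3-mark region and 1.2% (0.69 to 2.09) stood alone. The same shares were 85.6% and 2.90% for the top 1000 H3K9la peaks and 85.8% and 2.10% for those of H4K16la. Of the H3K9la peaks at ranks 10001 to 20000, 42.9% stood alone, 31.2% lay in 2-mark and 25.97% in 3-mark regions. At ranks 5001 to 10000 the 3-mark share was 41.4% for H3K9la, 43.2% for H4K8la and 38.9% for H4K16la. Past rank 40000 it was 5.96%, 4.31% and 4.97%, and 75.2% to 82.0% of these weak peaks stood alone.

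**Figure D2:**
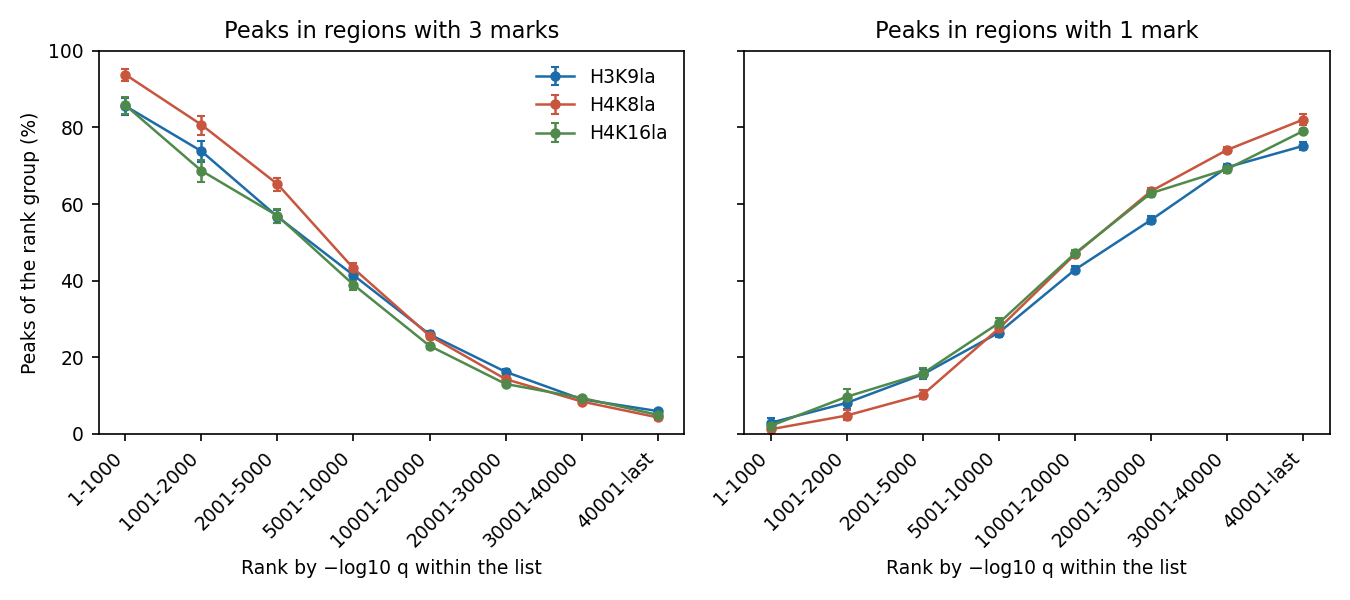
Points give the percent of peaks of each rank group (vertical axis) that lie in regions with 3 marks (left) or with 1 mark (right), against rank by −log10 q within the lactate list of H3K9la, H4K8la and H4K16la, with Wilson 95% intervals. All 3 lines fall from 85.6% or more in the first 1000 ranks to 5.96% or less in the last group on the left, and rise in mirror image on the right.

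Among peaks with −log10 q of at least 10, 84.8% of the 1124 for H3K9la, 91.3% of the 1387 for H4K8la and 74.2% of the 2623 for H4K16la were in 3-mark regions. Only 37, 25 and 180 of them stood alone. How often strong peaks of 2 marks overlapped depended on the list counted. Of the strong H4K16la peaks, the longest of these lists, 22.6% overlapped a strong H3K9la peak and 29.5% a strong H4K8la peak. Between H3K9la and H4K8la the shares were 38.7% of the H3K9la and 31.3% of the H4K8la peaks. Of the strong H3K9la peaks 52.9% (50.0 to 55.8), and of the strong H4K8la peaks 55.7% (53.0 to 58.3), overlapped an H4K16la peak that also reached 10. Of all 10725 3-mark regions, 350 (3.26%) reached a −log10 q of 10 for all 3 marks, 703 for 2 marks, 1707 for 1 mark and 7965 (74.3%) for none.

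Within 3-mark regions the folds of the marks were correlated about as much as those of the same mark in both conditions. Across the 10725 regions, Spearman's rho of the fold was 0.44 between H3K9la and H4K8la, 0.51 between H3K9la and H4K16la and 0.49 between the H4 marks. For −log10 q it was 0.40, 0.43 and 0.47. At the 7268 regions with a peak in all 6 libraries, rho of the fold between marks under lactate was 0.46, 0.53 and 0.49. Between lactate and control it was 0.55 for H3K9la, 0.48 for H4K8la and 0.53 for H4K16la. These are descriptions across regions, which are not replicates and share local coverage and mappability. The fold of one mark was rarely more than double that of another, at 32, 26 and 41 regions for these pairs. H4K8la had the highest fold of the 3 marks in 47.96% of the regions, yet H4K16la had the highest −log10 q in 46.4%. By rank of the fold within each list H4K16la led in 38.7%, H4K8la in 32.6% and H3K9la in 28.7%, so the mark that led depended on the measure. The H4K8la library was the shallowest and the H4K16la library the deepest, and the part of depth in this contrast was not tested.

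When 6 lists were set side by side, how far overlaps sorted by mark depended on the length of the lists. With 40681 top peaks from each list, the length of the shortest of the 6, the share of a lactate list that overlapped another lactate list ran from 33.4% to 37.2%. The same mark in control and lactate shared 36.2% to 42.7%, and different marks in different conditions 33.4% to 40.4%. Different marks within control shared 39.2% to 48.1%, so the lactate libraries were less alike at this length than the control ones. At the top 2000 this was gone, with 34.65% to 42.75% within control and 37.2% to 41.8% within lactate. Control peaks were also wider, with full-list medians of 500, 494 and 456 bp for H3K9la, H4K8la and H4K16la. With lactate these were 449, 476 and 448 bp, and the part of width in the overlaps was not tested.

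For H3K9la, 33.5% (33.0 to 33.9) of its 40681 lactate peaks overlapped H4K8la lactate, 37.2% (36.7 to 37.7) overlapped H4K16la lactate and 42.7% (42.2 to 43.2) its own control list. For H4K8la the shares were 33.4% with H3K9la, 33.9% with H4K16la and 40.2% with its own control. For H4K16la they were 37.1% with H3K9la, 33.9% with H4K8la and 36.2% with its own control. H4K16la lactate was thus no closer to H4K16la control than to H3K9la lactate, and it overlapped H3K9la control at 40.4%.

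At the top 2000 peaks the picture changed for the H4 marks. H4K16la lactate then overlapped its own control at 45.5%, H4K8la lactate at 41.8% and H3K9la lactate at 38.2%. H4K8la lactate overlapped its own control at 43.0% and H4K16la control at 45.6%. H3K9la lactate had 37.2% and 38.3% with the other 2 lactate lists and 38.25% with its own control, values within counting error of each other.

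**Figure D3:**
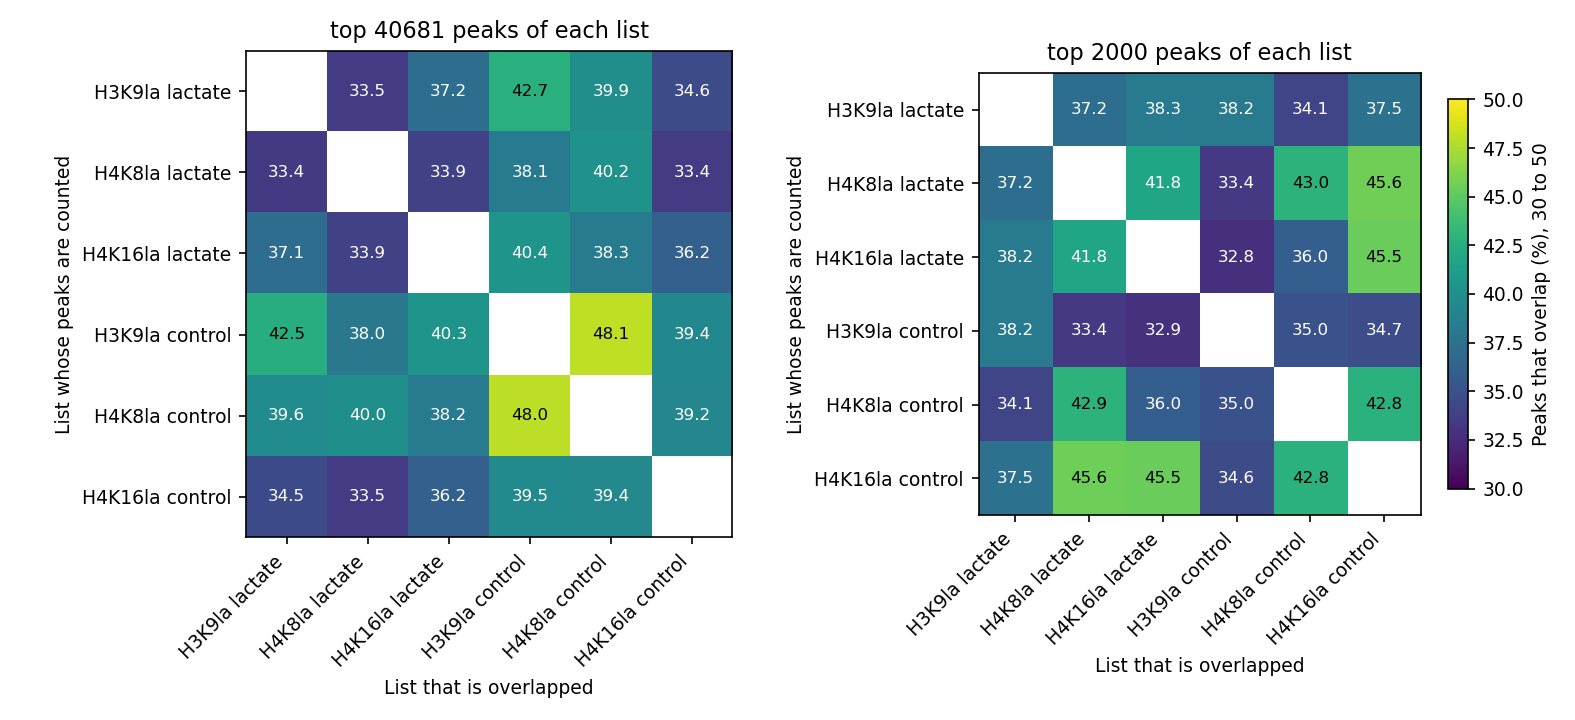
Each cell gives the percent of peaks of the list at the left that overlap the list below by at least 1 bp, for the top 40681 (left) and top 2000 (right) peaks of each of the 6 lists, on a colour scale from 30 to 50%. Lactate lists share 33.4 to 37.2% with each other on the left, and the highest cells there are H3K9la control with H4K8la control (48.1%).

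Within merged regions the summits of the marks lay close together without coinciding. Peaks had to overlap to share a region, so the merging itself limits how far apart summits can lie. In 3-mark regions the median distance between summits was 145 bp for H3K9la to H4K8la (quartiles 50.0 and 281 bp), 128 bp for H3K9la to H4K16la (41.0 and 262 bp) and 140 bp for H4K8la to H4K16la (44.0 and 274 bp). Summits were within 100 bp of each other at 39.5%, 43.2% and 41.2% of the regions, and within 500 bp at 91.4%, 92.0% and 91.8%. All 3 summits fell within 100 bp in 2238 regions (20.9%) and within 250 bp in 5748 (53.6%). They spread over more than 1000 bp in 162. Their spread took up a median of 26.6% of the region's width.

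In regions with only 2 marks the summits were farther apart, at a median of 172, 142 and 159 bp for the same pairs, although those regions were narrower. At the 350 regions where all 3 marks reached a −log10 q of 10, the medians were 58, 48 and 45 bp. As a yardstick, the 7268 regions with a peak in all 6 libraries gave 130 bp between H3K9la lactate and H3K9la control, 146 bp for H4K8la and 118 bp for H4K16la. Different marks under lactate gave 139, 122 and 132.5 bp at the same regions. Summits of different marks were therefore about as far apart as summits of the same mark in the other condition.

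**Figure D4:**
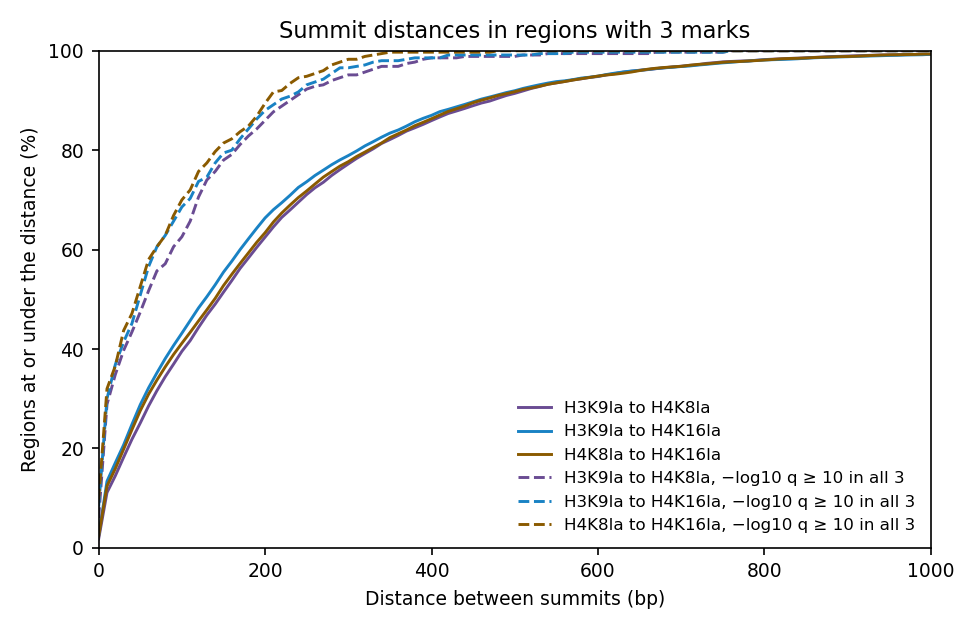
Lines give the percent of 3-mark regions (vertical axis) whose summits lie at or under a distance in bp (horizontal axis), for each pair of marks under lactate, for all 10725 regions (solid) and for the 350 where all 3 marks reach a −log10 q of 10 (dashed). The solid lines nearly coincide, with medians of 128 to 145 bp, and the dashed lines lie above them, with medians of 45 to 58 bp.

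Among 3-mark regions, the one of highest mean −log10 q lay on chromosome 1 from 154403659 to 154404088, where H3K9la had a fold of 20.8, H4K8la 20.3 and H4K16la 20.7. Its summit pileups were 109, 114 and 137 times the genome-wide background, and the control libraries of all 3 marks had a peak there too. The next, a stretch of chromosome 3 (2252034 to 2253252) and another of chromosome 1 (209640382 to 209641534), had folds between 5.41 and 5.79. Local background there exceeded the genome-wide value 14.4 to 27.1 times, and 4.72 to 6.26 times at the first region, in each of the 3 libraries.

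The same region of chromosome 1 also had the highest minimum fold of the 3 marks. The next by minimum fold, a measure that itself divides by local background, stood on lower coverage. On chromosome 19 from 22507281 to 22508018 H3K9la had a fold of 13.1, H4K8la 13.5 and H4K16la 13.1, and local backgrounds were 2.17 to 3.22 times that of the genome. On chromosome 20 from 3541721 to 3542995 the folds were 11.4, 11.5 and 11.3. A shorter region on chromosome 1 from 54944899 to 54945447 had 10.2, 10.2 and 10.6. All of these regions had control peaks of the 3 marks, as did 65.9% of all 10725 3-mark regions.

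Chromosome 12 from 30809498 to 30810398 was uneven, where H3K9la had a fold of 9.34, H4K8la 14.0 and H4K16la 15.2. The widest 3-mark region, on chromosome 1 from 34120345 to 34123467, was 3123 bp long and held 4 peaks, with folds of 4.75, 4.11 and 4.53. The third widest, on chromosome X from 13093061 to 13096044, held 5 peaks over 2984 bp. Such multiple peaks were rare, since 96.7% of 3-mark regions had exactly 1 peak per mark.

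Some 3-mark regions were led by 1 mark. For H3K9la this was clearest on chromosome 14 from 90985622 to 90986507, where its fold was 7.24 against 3.26 for H4K8la and 3.84 for H4K16la. For H4K8la it was chromosome 5 from 60415111 to 60416345, with 7.64 against 3.69 for H3K9la and 3.72 for H4K16la. For H4K16la it was chromosome 3 from 724148 to 724966, with 7.81 against 4.23 for H3K9la and 3.71 for H4K8la. These regions were picked for their imbalance, so the ratios describe the extremes of the 10725.

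Pairs without the third mark reached high values as well. H3K9la with H4K16la was led by chromosome 3 from 114340699 to 114341201, with folds of 9.67 and 7.38 and no H4K8la peak within 17316 bp under lactate. It was followed by chromosome 6 from 47939058 to 47939840, with 8.81 and 9.59. H4K8la with H4K16la was led by chromosome 19 from 21912904 to 21913366, with folds of 4.41 and 3.66, and followed by chromosome 1 from 53262858 to 53263292, with 5.33 and 4.13. Local background at this pair of regions was 5.02 to 9.75 times that of the genome, and the nearest H3K9la peak was 2161 and 1064 bp away. The next, on chromosome 17 from 2755554 to 2756356, had folds of 6.24 and 10.8 and no H3K9la peak within 182431 bp. H3K9la with H4K8la was led by chromosome 5 from 60475053 to 60475848, with folds of 6.73 and 5.45. Of the 12 strongest 2-mark regions, 4 for each pair, 9 had control peaks of all 3 marks and 11 had a control peak of the mark that was missing with lactate. Over all 17671 2-mark regions, 22.0% had control peaks of all 3 marks. The missing mark had a control peak in 39.3% of all regions with H3K9la and H4K8la, 47.0% of those with H3K9la and H4K16la and 54.6% of those with H4K8la and H4K16la. The 1 of the 12 regions without it, on chromosome 3 from 80343859 to 80344306 with H3K9la and H4K8la, had no control peak of any mark.

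The strongest single-mark region was an H3K9la peak of 311 bp on chromosome 1 from 205978630 to 205978940, whose fold was 11.9 and −log10 q 209.8, against 19.8 for the next H3K9la peak alone. Its summit held 313 fragments, and local coverage was also high, at 13.5 times the level of the genome. The nearest peak of another lactate list was 19529 bp away, while in control both H3K9la and H4K16la had a peak there. The strongest H4K8la peak alone, on chromosome 11 from 77361732 to 77362300, had a fold of 7.75 and control peaks of all 3 marks. The strongest H4K16la peak alone (fold 6.49), on chromosome 5 from 146403848 to 146404450, missed a peak of another mark by 14 bp.

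Of the single-mark peaks at least 10000 bp from both other marks, H4K16la was led by chromosome 12 from 21315596 to 21315915 (fold 7.09), which had no control peak of any mark. Distances to the nearest peak of another mark were also taken, but no share expected from peak density was computed. Of the single-mark peaks, 37.0% for H3K9la, 33.7% for H4K8la and 28.6% for H4K16la lay within 5000 bp of a peak of another mark. Median gaps were 7033, 8030 and 8852.5 bp.

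Regions with more marks under lactate more often held a peak in control. The control lists were not used to build the regions, and a wider region has more room for a control peak. An H3K9la control peak was found in 30.8% of all 112318 lactate regions and in 87.5% (86.9 to 88.1) of those with 3 marks. For H4K8la control the shares were 28.3% and 86.5% (85.8 to 87.1), and for H4K16la control 20.9% and 75.8% (74.96 to 76.58). Control peaks of all 3 marks were present in 11.8% of all regions, and in 2.76%, 22.0% and 65.9% of those with 1, 2 and 3 marks.

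No control peak of any mark was found in 56.2% of all regions, in 69.6% of 1-mark regions and in 3.49% (374) of 3-mark regions. Those 374 had a median width of 789.5 bp and median folds of 3.82, 3.93 and 3.58 for H3K9la, H4K8la and H4K16la. The 7067 with all 3 control marks had 968 bp and 4.27, 4.63 and 4.24. The 3-mark regions without a control peak were thus narrower and had lower folds.

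A single-mark region was only slightly tied to its own mark in control. Of the regions with H3K9la alone, 22.0% (21.4 to 22.5) had an H3K9la control peak, 17.5% an H4K8la one and 10.3% an H4K16la one. Regions with H4K8la alone had 15.3%, 16.7% (16.2 to 17.2) and 8.97%. Regions with H4K16la alone had 17.3%, 14.3% and 10.7% (10.4 to 11.0), so that their own mark was the least frequent. Over all 1-mark regions the shares were 18.1%, 15.9% and 10.1%. Against these, the own mark stood slightly higher in each class, that of H4K16la included. The H4K16la control list was the shortest of the 3, at 40681 peaks against 61850 and 61347.

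Merging the 3 control lists in the same way gave 114648 regions, of which 14304 (12.5%, 12.3 to 12.7) had all 3 marks. At 40681 peaks per list the 3-mark share was 10.6% (10.4 to 10.8) with lactate and 14.9% (14.7 to 15.2) in control. Peaks of the full control lists were wider for each mark, and the part of width in this gap was not tested. The gap was gone among the strongest peaks, with 13.0% and 12.9% at the top 5000, and 11.2% (9.95 to 12.6) against 9.37% (8.21 to 10.7) at the top 1000. With 1 library for each mark and condition, lactate and library cannot be told apart.

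The 3-mark share differed between autosomes by more than counting error and was lowest on X. On the autosomes it ran from 8.07% (7.22 to 9.01) on chromosome 18 to 11.4% (10.7 to 12.2) on chromosome 10, around 9.71% for all 20. Chromosome 17 had 8.43% (7.65 to 9.28) and chromosome 1 had 10.9% (10.3 to 11.4). Chromosome X had 120 such regions of 3064, or 3.92% (3.29 to 4.66). It also had fewer regions of any kind, 20.1 per Mb against 44.4 on the autosomes, over the span from first to last peak. Chromosome Y held 38 regions, 3 of them with 3 marks.

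On X the marks were not thinned alike in the full lists. Peaks per Mb were 5.62 for H3K9la, 8.20 for H4K8la and 9.89 for H4K16la, against 18.6, 16.9 and 24.8 on the autosomes. In control too, H3K9la had the smallest share of its peaks on X, 1.54% against 2.28% and 2.48%. At the top 2000 lactate peaks the X shares were 0.80%, 0.85% and 0.50%, with overlapping intervals. H3K9la was present in 27.9% of X regions and in 41.7% of autosomal ones, H4K16la in 49.1% and 55.7%, and H4K8la in 40.7% and 37.9%. Median summit pileup on X was 12 fragments for H3K9la, 10 for H4K8la and 15 for H4K16la, against 15, 12 and 17 on the autosomes. The X share stayed low at equal length, with 3.99% against 10.6% at 42787 peaks per list and 6.33% (4.09 to 9.68) against 13.3% at 10000. At the top 5000 it was 7.02% of 114 regions, with an interval of 3.60 to 13.24 that just spans the autosomal 13.04%. At the top 2000 it was 9.68% of 31 regions, with an interval of 3.35 to 24.9 that spans the autosomal 12.1%. In control, X had 6.83% against 12.6%. The part of the lower coverage of X in its low share was not tested.

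**Figure D5:**
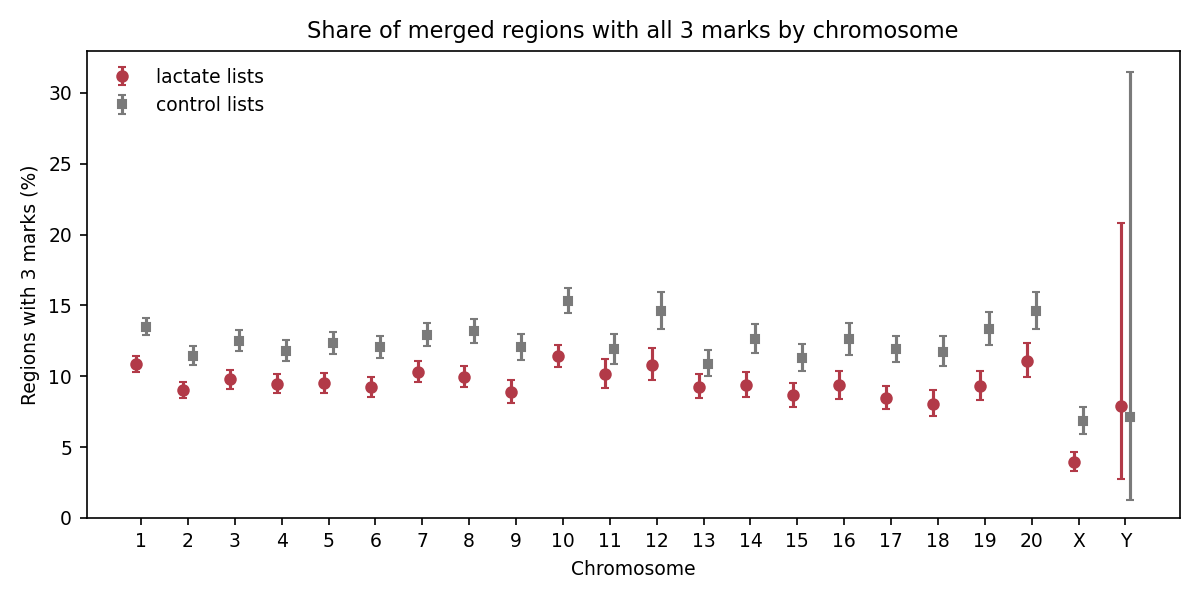
Points give the percent of merged regions with all 3 marks (vertical axis) on each chromosome, for the lactate lists (circles) and the control lists (squares), with Wilson 95% intervals. X lies below every autosome in both, at 3.92% with lactate and 6.83% in control, and Y has too few regions to place.

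At the scale of 1 Mb windows the 3 marks had nearly the same profile. Over 2642 windows, Spearman's rho of peak numbers was 0.92 between H3K9la and H4K8la, 0.95 between H3K9la and H4K16la and 0.92 between the H4 marks, as a description of windows that share coverage. A window held a median of 45 regions (quartiles 16 and 66) and a median of 3 with all 3 marks. There were 695 windows without a 3-mark region and 29 without any region. The 264 windows with most 3-mark regions held 31.7% of them. The 3-mark share went up with the number of regions in a window, from 4.08% (3.54 to 4.71) in the 654 windows with the fewest regions, among those that held any, to 11.3% (11.1 to 11.6) in the 653 with the most. Peaks of different lists overlap more readily where they are denser, and the part of density or coverage in this trend was not tested.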

How the data were processed

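The authors deposited 1 peak list per library. The submitters' processing notes name FastQC, cutadapt, Bowtie2, deepTools and MACS2 and build rn7, while the sources used here give no versions or settings and do not say whether an IgG library was used. As deposited by the authors, the fold column is a ratio of summit pileup to local background, the −log10 p and −log10 q columns belong to single peaks (lowest −log10 q 1.30 or 1.31, a q of 0.05), and the score is 10 times the −log10 q without decimals, except for 3 to 68 peaks per list. Other deposited columns hold positions.

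Regions were built by merging peaks that overlapped by 1 bp. The strongest peak of a mark gave its summit. Equal lists took the peaks of highest −log10 q, ties broken by −log10 p, fold and position. Summit pileup and local background were solved from fold and −log10 p, read as a Poisson tail, for every peak within 0.002. This reading is inferred from the values. The genome-wide background of a library was its commonest local value. Steps were tested on simulated peaks.

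The 3 lists, combinations and named regions were chosen with earlier results of these data known. Named regions were the 4 of highest mean −log10 q per combination, and for 3 marks the 4 of highest minimum fold, the 4 widest and the 2 led most by each mark. The strongest single-mark peak at least 10000 bp from both other marks was added. Not all of these are printed. Rank groups, windows, gaps, correlations across regions, the leading mark, the 6-list summit comparison and X at 20000 or fewer peaks per list were added after the lists were seen. Planned placement on genes was not analysed here, since the gene table at hand describes another build. Python 3.11.15, numpy 2.4.6, pandas 2.3.3, scipy 1.17.1 and matplotlib 3.10.9 were used.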

Additional observations from a re-analysis of the deposited data

How the results depend on the processing

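No replicate was left out in any setting, since each group has 1 library. No paired analysis was possible because each group has 1 library and no replicate numbers. Counts of regions fall with shorter lists by construction. What depth limits is known only through the scaling to the lowest background below. Values at full lists stand in the report, and every value below was planned.

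Regions with 1, 2 and 3 marks numbered 15325, 4479 and 2767 at −log10 q of at least 5 (12.3% with 3 marks), and 2582, 750 and 350 at 10. They numbered 28707, 7813 and 5191 (12.4%) for the top 20000 peaks per list, 13741, 4070 and 2699 (13.2%) for 10000, 6823, 2090 and 1329 (13.0%) for 5000, 2826, 828 and 505 (12.1%) for 2000 and 1463, 412 and 237 (11.2%) for 1000. Ranked by fold they were 16056, 3734 and 2156 (9.82%) for the top 10000, and 3325, 778 and 373 (8.33%) for 2000. The 3-mark share was 10.4% at the length of the shortest list, 8.44% with an overlap of 50% of the shorter peak, 5.92% with summits within 250 bp, 10.3% with gaps up to 500 bp joined and 10.7% with summits scaled to the lowest background and −log10 p of at least 4. In those 5 settings the counts stayed within 1.5 times those reported, as they did on autosomes alone and without regions over 5 times the genome-wide background.

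Overlap shares are given in the order H3K9la with H4K8la, H3K9la with H4K16la, H4K8la with H3K9la, H4K8la with H4K16la, H4K16la with H3K9la and H4K16la with H4K8la, each as a share of the first list. In the full lists they were 31.1, 40.5, 33.7, 38.2, 30.2 and 26.2%. At −log10 q of at least 5 they were 37.1, 48.9, 41.3, 54.0, 31.9 and 31.7%, and at 10 they were 38.7, 52.9, 31.3, 55.7, 22.6 and 29.5%. At the length of the shortest list they were 32.8, 37.0, 32.8, 33.4, 36.9 and 33.4%, at the top 10000 39.2, 40.4, 39.1, 42.2, 40.3 and 42.2%, and at the top 2000 37.2, 38.3, 37.2, 41.8, 38.2 and 41.8%. With an overlap of 50% of the shorter peak they were 27.3, 36.1, 29.6, 33.8, 26.9 and 23.2%, and with summits within 250 bp 21.9, 29.9, 23.8, 27.3, 22.2 and 18.7%.

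In 3-mark regions the median widths of H3K9la, H4K8la and H4K16la peaks were 589, 635 and 634 bp at the length of the shortest list and 589, 639 and 625 bp with the 50% overlap. Median folds were 4.18, 4.45 and 4.12, and 4.17, 4.45 and 4.06. Median −log10 q was 5.04, 5.17 and 6.20, and 5.04, 5.19 and 6.02. Median summit distances at the length of the shortest list were 139, 120.5 and 133 bp. With 40681 peaks in each of the 6 lists, 84.1%, 84.8% and 78.6% of the 3-mark regions held a control peak of H3K9la, H4K8la and H4K16la. Of 138 alternative values for the main results, 33 stayed within 1.5 times (counts) or within the 95% interval of the reported value.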
